A study of Mus musculus with 12 samples.

Results

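The regions described here are stretches of open chromatin that carried an ATAC-seq peak in every wild-type regulatory T cell (Treg) library and in no wild-type conventional T cell (Tconv) library. They number 1879 of the 40457 regions obtained when overlapping or touching peaks of the whole series were merged. They make up 4.64% of all regions and 9.47% of the 19846 regions with a peak in all 3 wild-type Treg libraries. A peak counted as present when it covered at least 1 bp of the region. The 6 wild-type lists chose these regions, so their presence and strength in wild type are given as a description and were not tested.

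ATAC-seq uses the Tn5 transposase to insert sequencing adapters into DNA that is not packed tightly around nucleosomes, and a peak caller then marks where insertions pile up. CD4+ T cells from the spleen of mice with a Foxp3-GFP reporter were enriched by magnetic negative selection. They were then sorted into GFP-positive Treg and GFP-negative Tconv, with 100000 cells per library. The 4 groups of 3 libraries were Treg from wild-type mice (WT Treg), Tconv from wild-type mice (WT Tconv), and Treg and Tconv from mice labelled as a knockout of an enhancer at +70 kb of Lrrc32 (KO Treg and KO Tconv). All 4 groups carried the reporter, and no age, sex or further allele is stated. Whether each library stands for its own animal is not stated, so a p-value here reflects only how far libraries of a group scatter, and that scatter may be technical.

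Treg depend on the transcription factor Foxp3 and hold back immune responses, including inflammation of the gut. Their lineage is marked both by Foxp3 itself and by open regulatory DNA that Tconv lack, much of it at distal enhancers. Lrrc32 encodes GARP, a surface protein that displays latent TGF-beta on activated Treg, and a distal enhancer of this gene is the element deleted in the KO mice. Because cells were sorted on the reporter, GFP alone separates the cell types. Expression markers cannot be read from these lists, and the labelled cell types were not checked against defining genes.

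WT Treg lists held 22883 to 27605 peaks, WT Tconv lists 21269 to 24546 and KO Tconv lists 24649 to 25283. KO Treg replicates 1 and 3 held 24689 and 25400, but KO Treg replicate 2 held 5262 and is reported apart. The weakest peak had a −log10 p of about 5 in every list, so a region just below that limit reads as absent. The lists give no read depth. In bulk libraries, fewer cells with an open region and less opening per cell cannot be told apart. Regions are given by position on the build NCBIM37. No genome or gene annotation of that build was used here, so neither sequences nor overlapping genes are given, and no source used here states where the deleted element lies on it.

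The Treg-only regions were mostly narrow and of low to middle rank in the lists that chose them. Their median width was 651 bp, with quartiles of 486 and 894 bp and a range of 207 to 4342 bp. The 15639 regions with a peak in all 6 WT lists, called shared regions below, had a median of 1019 bp. The 964 regions found in all 3 WT Tconv and no WT Treg list, called Tconv-only below, had a median of 600.5 bp. Strength was taken as the percentile of a peak's −log10 p within its own list (column 8 of the deposited lists), where 100 is the strongest peak. Averaged over the 3 WT Treg lists, the median percentile of Treg-only regions was 31.1, with quartiles of 20.3 and 43.4 and a range of 2.02 to 90.5. Shared regions had a median of 66.8. Ranks of a Treg-only region varied between the WT Treg lists by a median SD of 9.82 percentile points (quartiles 6.19 and 14.3).

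Of the regions just outside the rule, those with 1 WT Tconv peak were close to the members in strength. The 936 regions with 3 WT Treg peaks and 1 WT Tconv peak had a median percentile of 31.9. Of these, 84.1% and 85.7% had a peak in KO Treg replicates 1 and 3, and 59.2%, 57.7% and 56.2% had one in KO Tconv replicates 1, 2 and 3. The 1708 regions with 2 WT Treg peaks and no WT Tconv peak were weaker, with a median percentile of 17.4. In that group 54.7% and 56.9% had a peak in KO Treg replicates 1 and 3, and 14.8%, 16.0% and 16.1% in the KO Tconv libraries.

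Most Treg-only regions had a peak in KO Treg, and few had one in any single KO Tconv library. A peak was present at 1619 of the 1879 regions (86.2%) in KO Treg replicate 1 and at 1650 (87.8%) in KO Treg replicate 3, a mean of 87.0% ± 1.17 (SD, n = 2). KO Tconv replicates 1, 2 and 3 had a peak at 298 (15.9%), 336 (17.9%) and 280 (14.9%), a mean of 16.2% ± 1.52 (SD, n = 3). KO Treg replicate 2 had a peak at 68 (3.62%), below every KO Tconv library. With all 6 KO libraries, the KO Treg share exceeded the KO Tconv share by 43.0 percentage points (p = 0.4 in a two-sided exact permutation test of 3 against 3 libraries), with KO Treg shares averaging 59.2% ± 48.1 (SD, n = 3). Without KO Treg replicate 2 the difference was 70.8 points (p = 0.1 in a two-sided exact permutation test of 2 against 3 libraries), and 0.1 is the smallest p either design can give. Leaving out KO Treg replicate 1 or 3 instead gave 29.4 or 28.6 points.

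Seen region by region, 1480 Treg-only regions (78.8%, exact 95% Clopper-Pearson interval 76.9 to 80.6) had a peak in both KO Treg replicate 1 and replicate 3, against 92.5% of all regions with a peak in the 3 WT Treg lists. The intervals cover counting error only. A peak in both and in no KO Tconv library, the wild-type pattern seen again in KO, was found at 1035 regions (55.1%, interval 52.8 to 57.4), against 5.59% of all merged regions. At 445 regions (23.7%) both KO Treg libraries and at least 1 KO Tconv library had a peak. Another 309 regions (16.4%) had a peak in only 1 of KO Treg replicates 1 and 3. The remaining 90 regions (4.79%, interval 3.87 to 5.86) had a peak in neither, against 1.61% of all regions with a peak in the 3 WT Treg lists. The median WT percentile was 33.9 for regions found in both KO Treg libraries, 21.5 for those found in 1 and 19.0 for those found in neither. The count of 90 moved with each WT Treg and KO Treg library: leaving out WT Treg replicate 1, 2 or 3 when choosing the regions gave 9.58%, 7.30% or 12.3% absent, and requiring absence from KO Treg replicate 3 alone or 1 alone gave 12.2% or 13.9%. Leaving out any 1 Tconv library gave 4.785% to 5.19%, but KO Tconv lists enter this share only through the merging of peaks.

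Presence in KO Treg rose with strength in wild type. The regions were divided at the quartiles of WT strength into 4 groups of 469 or 470, from percentile 2.02 to 20.3, to 31.1, to 43.4 and to 90.5. From the weakest to the strongest group, KO Treg replicate 1 had a peak at 73.0%, 83.0%, 91.3% and 97.4% of regions. KO Treg replicate 3 had a peak at 77.2%, 85.5%, 91.5% and 97.0%. Both libraries climbed at every step, and the replicates differed most in the weakest group. KO Tconv shares showed no such climb: 12.6%, 16.4%, 17.9% and 16.6% in replicate 1, 17.0%, 17.0%, 18.1% and 19.4% in replicate 2, and 15.7%, 17.9%, 14.9% and 11.1% in replicate 3. The 3 KO Tconv libraries did not share a direction from the weakest to the strongest group.

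**Figure D1:**
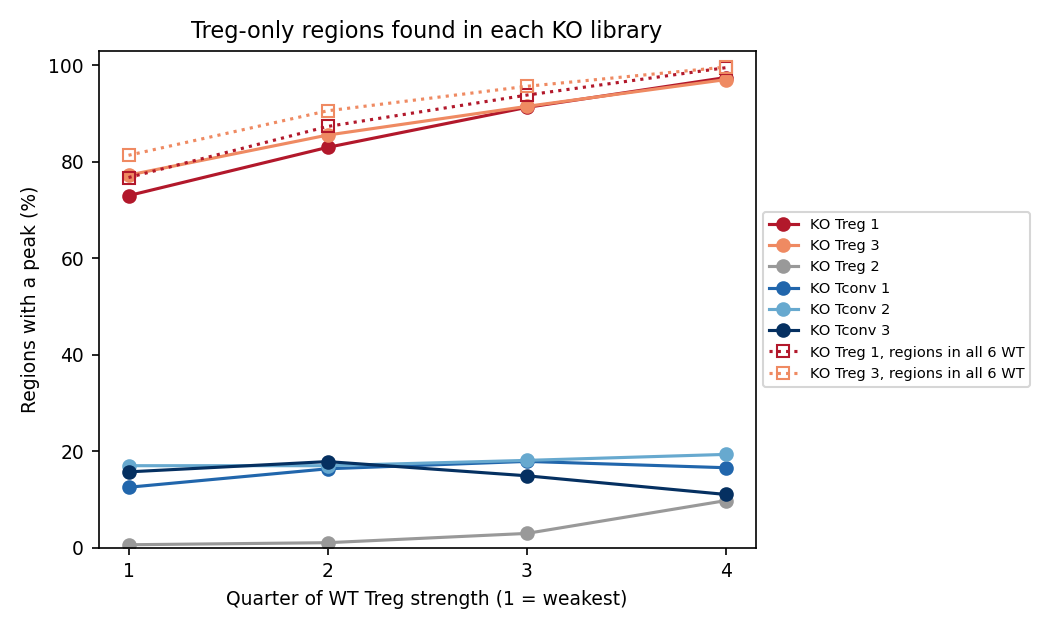
Share of Treg-only regions with a peak (y axis, percent) in each KO library, by quartile group of mean WT Treg percentile (x axis, weakest to strongest). Dotted lines with open squares give KO Treg replicates 1 and 3 for shared regions in the same ranges. KO Treg replicates 1 and 3 climb from 73.0% and 77.2% to 97.4% and 97.0%, KO Treg replicate 2 stays at or below 9.79%, and the KO Tconv libraries lie between 11.1% and 19.4%.

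Shared regions in the same strength ranges gave close values. Among 477, 985, 1761 and 10175 shared regions in these 4 ranges, KO Treg replicate 1 had a peak at 76.7%, 87.3%, 93.8% and 99.5%, and replicate 3 at 81.3%, 90.6%, 95.6% and 99.6%. Treg-only regions lay lower in every range in both libraries. No range matches the sets in width, and the strongest range does not match them in strength either. Median percentiles in the strongest range in KO Treg replicates 1 and 3 were 58.9 and 60.1 for Treg-only and 69.2 and 70.05 for shared regions. From the weakest to the strongest range, mean WT Treg median widths were 331.7, 355.5, 385.7 and 504 bp for Treg-only regions. For shared regions they were 454.7, 504.3, 546.7 and 707 bp. The regions absent from KO Treg replicates 1 and 3 numbered 48, 27, 10 and 5 from the weakest to the strongest group, or 10.2%, 5.74%, 2.13% and 1.06%. Shared regions were absent at 8.39%, 3.65%, 0.852% and 0.0885%. The wild-type pattern recurred in KO at 43.2%, 52.8%, 57.6% and 66.8% of Treg-only regions.

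**Figure D2:**
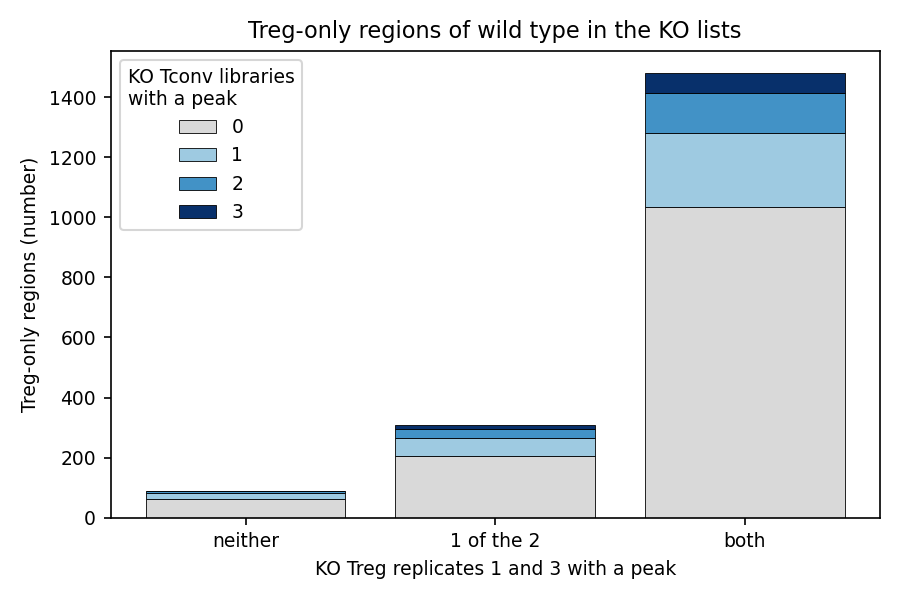
Number of Treg-only regions (y axis) with a peak in neither, in 1 or in both of KO Treg replicates 1 and 3 (x axis). Stacked colours give the number of KO Tconv libraries with a peak. The bars hold 90, 309 and 1480 regions, and 1035 of the last bar had no KO Tconv peak.

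A wild-type library that had no part in choosing gives a yardstick for these shares. When regions were chosen from 2 WT Treg lists and the 3 WT Tconv lists, the WT Treg list left out had a peak at 77.6% ± 10.02 (SD, n = 3 choices), KO Treg replicate 1 at 79.1% and KO Treg replicate 3 at 80.9%. By quartile group, the list left out had a peak at 58.7% ± 14.4, 72.4% ± 12.04, 84.6% ± 9.14 and 94.8% ± 4.84 (SD, n = 3). KO Treg replicate 1 had 62.0%, 74.2%, 85.2% and 95.1%, and KO Treg replicate 3 had 65.9%, 76.9%, 86.0% and 94.9%. In every group the KO values lay within 1 SD of the left-out wild-type value. With the 21269 strongest peaks of each list the SD was smaller: the lists left out had a peak at 78.9%, 74.0% and 78.1% (77.0% ± 2.62, SD, n = 3). Both KO Treg libraries then lay above the list left out in each choice, at 79.6% to 81.6%, a mean gap of 3.71 percentage points against 2.40 with all peaks. These choices share lists, so no test was made.

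In Tconv the KO lists lay above the left-out wild-type lists by a wider gap. Among 2214, 2319 and 2040 regions with a peak in the 3 WT Treg lists and in neither of the other WT Tconv lists, the WT Tconv list left out had a peak at 15.1%, 19.0% and 7.89% (SD 5.63 percentage points, n = 3). KO Tconv replicates 1, 2 and 3 averaged 21.9%, 23.4% and 20.7% over these choices, and within each choice every KO Tconv library lay above the left-out WT list. The mean gap was 8.01 percentage points. Every KO Tconv list also held more peaks than every WT Tconv list, and with the 21269 strongest peaks of each list the gap was 5.50 points, with left-out WT lists at 13.9% ± 1.30 (SD, n = 3). This difference was not tested, since the choices share lists.

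Of the 1879 Treg-only regions, 578 (30.8%, interval 28.7 to 32.9) had a peak in at least 1 KO Tconv library, against 38.6% of the 12658 regions with no WT Tconv peak. KO Tconv peaks took part in the merging, so some of the 12658 regions exist only because of such a peak. Shares over the 12658, here and below, are raised by these regions and are not a like-for-like comparison. Treg-only is thus a label for the wild-type lists. In KO, 1301 regions had no KO Tconv peak, and 1035 of these had a peak in both KO Treg replicates 1 and 3. Peaks occurred in 1 KO Tconv library at 323 regions, in 2 at 174 and in all 3 at 81 (4.31%, interval 3.44 to 5.33), against 2.05% of the regions with no WT Tconv peak. This count moved with each Tconv library: leaving out WT Tconv replicate 1, 2 or 3 when choosing gave 7.45%, 9.31% or 6.18%, and requiring only the other KO Tconv lists without replicate 1, 2 or 3 gave 7.55%, 6.97% or 7.66%.

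Where KO Tconv had a peak, it was a weak one. The median percentile of Treg-only regions in KO Tconv replicates 1, 2 and 3 was 14.4, 16.4 and 14.5, and their median peak width was 265, 258 and 273.5 bp. Of these peaks, 5, 7 and 9 lay above percentile 50 in their list. The 81 regions found in all 3 KO Tconv lists had medians of 16.5, 16.3 and 23.3 there. In WT Treg the same 81 regions had medians of 35.5, 36.1 and 27.1, and 65 of them had a peak in KO Treg replicates 1 and 3. In WT Treg they ranked near the median of all Treg-only regions. In KO Treg replicates 1 and 3 they had medians of 32.05 and 33.25, below the 38.04 and 37.64 of all Treg-only regions with a peak there.

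Treg-only regions ranked somewhat higher in KO Treg lists than in the WT Treg lists that chose them. Over all member peaks of a list, the median percentile was 31.4, 33.3 and 29.3 in WT Treg replicates 1, 2 and 3 (31.3 ± 1.98, SD, n = 3) and 38.0 and 37.6 in KO Treg replicates 1 and 3 (37.8 ± 0.284, SD, n = 2). Both KO medians lay above all 3 WT medians. Regions without a KO peak do not enter the KO medians. Among the 1480 regions with a peak in all 5 lists, the medians were 34.7, 36.6 and 32.8 in WT Treg and 40.2 and 39.9 in KO Treg, and again the groups did not overlap. The 15043 shared regions with a peak in these lists had 69.4, 72.1 and 65.8 in WT Treg and 68.3 and 69.2 in KO Treg, where the groups overlapped. Regions just outside the rule were set beside them, over all their peaks in each list. Those with 2 WT Treg and no WT Tconv peak had medians of 16.5, 18.6 and 14.2 in WT Treg. In KO Treg replicates 1 and 3 they had 21.2 and 23.1, without overlap. Those with 3 WT Treg and 1 WT Tconv peak had 31.0, 35.8 and 27.0 against 35.5 and 37.5, which overlapped.

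Peak width behaved likewise. Median widths of the 1480 regions were 439.5, 462.5 and 406 bp in WT Treg (436 ± 28.4, SD, n = 3) and 480.5 and 489 bp in KO Treg (484.8 ± 6.01, SD, n = 2). Shared regions had 730, 757 and 659 bp in WT Treg and 725 and 757 bp in KO Treg. Over all their peaks, regions with 2 WT Treg and no WT Tconv peak had 259, 289 and 259 bp in WT Treg. In KO Treg replicates 1 and 3 they had 309.5 and 314 bp, without overlap. Regions with 3 WT Treg and 1 WT Tconv peak had 380, 450 and 341 bp against 437 and 439 bp, which overlapped. The authors' fold enrichment of the 1480 regions had medians of 5.34, 5.30 and 5.57 in WT Treg and 5.57 and 5.52 in KO Treg, which overlapped. Ranked by fold within each list, they stood at median percentiles of 41.2, 42.5 and 39.3 in WT Treg and 46.6 and 45.9 in KO Treg, which did not overlap. Shared regions had folds of 6.67, 6.63 and 6.67 in WT Treg and 6.49 and 6.46 in KO Treg, so that both KO values lay below all WT values. By fold percentile they stood at 67.2, 69.1 and 63.5 in WT Treg and 65.4 and 66.0 in KO Treg. These ranks are relative to each list, and the WT lists were chosen on, so the differences are descriptions.

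**Figure D3:**
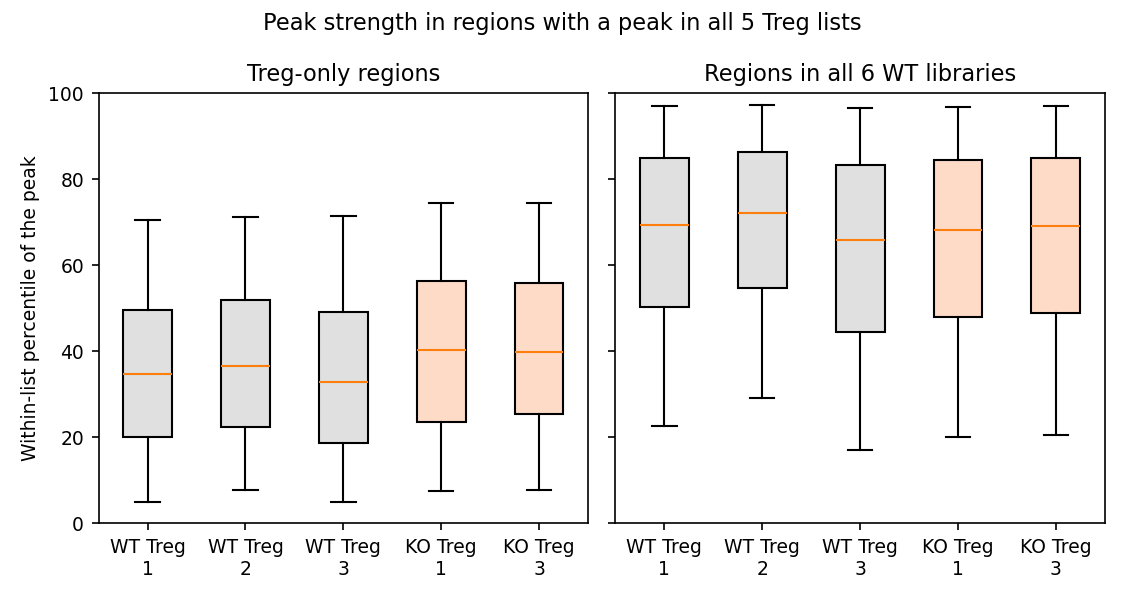
Within-list percentile of −log10 p (y axis, 0 to 100) in regions with a peak in all 5 Treg lists, per library (x axis). The left panel shows Treg-only regions and the right panel shared regions, and KO Treg replicate 2 is not drawn. Lines are medians, boxes quartiles and whiskers the 5th and 95th percentiles of regions. Treg-only medians are 40.2 and 39.9 in KO Treg replicates 1 and 3 and 32.8 to 36.6 in the WT Treg libraries. Shared medians are 68.3 and 69.2 in these KO Treg libraries and 65.8 to 72.1 in WT Treg.

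Taken per region, the mean KO percentile minus the mean WT percentile had a median of 4.08 points over the 1480 regions, with quartiles of −3.35 and 11.6. It was above 0 at 946 (63.9%), against 47.6% of the shared regions, whose median difference was −0.225. The width difference had a median of 37.7 bp and was above 0 at 950 regions (64.2%). At 283 of the 1480 regions (19.1%) both KO percentiles lay above all 3 WT percentiles, against 10.05% of the 18360 regions with a peak in these 5 lists. At 87 (5.88%) both lay below, against 10.6%. For width, 243 (16.4%) lay above, against 12.2%, and 83 (5.61%) below, against 7.23%. The wild-type lists selected these regions, and both shares are read with that in mind.

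When Treg-only regions were chosen from KO instead (KO Treg replicates 1 and 3 and no KO Tconv list), the 1159 with a peak in all 5 Treg lists had median percentiles of 34.2, 36.5 and 33.0 in WT Treg and 39.5 and 39.9 in KO Treg. Most of those regions are also members of the wild-type set. The 124 that are not had 32.3, 37.1 and 30.3 in WT Treg and 34.1 and 36.3 in KO Treg, so that their ranges overlapped. Tconv-only regions with a peak in all 6 Tconv lists (607) had medians of 39.2, 42.2 and 39.3 in WT Tconv and 39.9, 33.0 and 42.8 in KO Tconv, also overlapping.

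Ranks of the 1480 regions were only loosely kept between any pair of Treg lists. Across these regions, Spearman's rho was 0.555 to 0.632 between WT Treg lists, 0.563 to 0.605 between WT and KO lists, and 0.625 between KO Treg replicates 1 and 3. Regions are not independent replicates, and these values only describe the lists. Pairs that crossed genotypes were about as alike as pairs within a genotype.

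KO Treg replicate 2 had a peak at 68 Treg-only regions, against 23.1% of all regions with a peak in the 3 WT Treg lists. Their median WT percentile was 54.3 (19.6 to 90.5), and 3, 5, 14 and 46 of them lay in the weakest to the strongest quartile group. Of the 68, 67 of them also had a peak in KO Treg replicates 1 and 3. In that list their peaks had a median percentile of 21.3 and a median width of 287.5 bp. In bands of 20 WT percentile points from weakest to strongest, a peak was present at 0.658%, 2.02%, 4.25%, 13.4% and 68.8% of Treg-only regions. Shared regions in the same bands had 1.76%, 2.42%, 4.66%, 19.4% and 70.1%. The top band held 16 Treg-only regions, of which 11 had a peak. In every band the share of Treg-only regions in this low-yield list lay below that of shared regions.

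The 10 strongest Treg-only regions all had a peak in KO Treg replicates 1 and 3, with percentiles there of 76.8 to 96.1. The strongest, at chr13:24578908-24579747 (840 bp), stood at percentile 81.8, 93.3 and 96.2 in WT Treg replicates 1, 2 and 3, at 92.6 and 93.3 in KO Treg replicates 1 and 3, and at 58.5 in KO Treg replicate 2. It was also the strongest of those found in every KO Tconv list, at 36.9, 35.6 and 32.5. All its Treg values outside replicate 2 lay above 80, and its KO Tconv values lay below 40.

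The next strongest, at chr16:33606781-33607472 (692 bp), stood at 86.4, 90.6 and 89.6 in WT Treg and at 93.3 and 88.0 in KO Treg replicates 1 and 3, with no peak in any KO Tconv list or in KO Treg replicate 2. The region chr12:35705427-35706557 stood at 90.7, 82.4 and 87.4 in WT Treg and at 96.1 and 89.8 in KO Treg replicates 1 and 3. It had no KO Tconv peak and stood at 72.2 in KO Treg replicate 2. In both regions the WT and KO values overlapped.

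The pair chr13:76718529-76719311 and chr13:111353955-111354759 likewise lacked KO Tconv peaks and had percentiles of 83.2 to 90.3 in WT Treg and 84.4 to 89.4 in KO Treg replicates 1 and 3. The widest of the 10, chr7:81495144-81496576 (1433 bp), had peaks of 1342, 1325 and 1407 bp in WT Treg and 1406 and 1394 bp in KO Treg replicates 1 and 3. It kept a peak of 1055 bp in KO Treg replicate 2 and had a peak of 1200 bp at percentile 20.02 in KO Tconv replicate 2. The others were chr2:102796810-102797606, chr2:83540576-83541453, chr14:100860412-100861142 and chr12:120476240-120477503, with mean WT percentiles of 85.0, 82.8, 82.1 and 81.6. Of the 10, 7 had a peak in KO Treg replicate 2 and 5 had a peak in at least 1 KO Tconv list.

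Other strong regions with a peak in all 3 KO Tconv lists were chr2:9907428-9908195, chr14:87450854-87451900, chr1:97650671-97651714 and chr16:97493661-97494329. The first stood at 76.1, 79.8 and 88.1 in WT Treg, at 79.3 and 84.4 in KO Treg replicates 1 and 3, and at 18.8, 31.1 and 56.3 in KO Tconv. The region on chromosome 1 stood at 77.2, 81.1 and 63.5 in WT Treg, at 66.7 and 66.5 in KO Treg, and at 4.38, 19.1 and 9.71 in KO Tconv. In each of these regions every KO Tconv value lay below every WT Treg value.

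At the other end, the 4 weakest Treg-only regions had mean WT percentiles of 2.02 to 3.18. Of these, chr2:153355316-153355865 had a peak in both KO Treg replicates 1 and 3, at 10.6 and 25.6. The regions chr16:11653004-11653358 and chr16:19977062-19977646 had one in replicate 1 alone, at 23.6 and 0.446, and chr3:60591992-60592234 had none.

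Among the 90 regions absent from KO Treg replicates 1 and 3, the strongest was chr7:105710837-105711903 (1067 bp). It stood at percentile 59.1, 48.0 and 52.6 in WT Treg replicates 1, 2 and 3, with peaks of 1047, 991 and 1010 bp, and had no peak in any KO list. It was also the widest of the 90 by mean WT peak width, with 1016 bp against a median of 278 bp, and the next, on chromosome 1, had 880 bp at a mean percentile of 10.9. The regions next in rank were narrow. The next strongest absent region, chr8:13660391-13660669, stood at 47.3, 59.1 and 49.1 with WT peaks of 172 to 267 bp, and had a peak at 57.8 in KO Tconv replicate 2. A region on chromosome 18, chr5:147669282-147669654 and chr5:23809089-23809318 followed, with mean WT percentiles of 49.8, 47.1 and 45.8, WT peaks of 149 to 360 bp and no peak in a KO list.

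The absent regions lay on all autosomes but chromosome 19, and on X. Chromosome 2 held 10 of its 166 members, chromosomes 1, 5 and 7 held 8 each, of 134, 115 and 92, and the other chromosomes held 6 or fewer. Of the 90, 61 had no KO Tconv peak, 20 had 1, 8 had 2 and 1 had 3.

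Most Treg-only regions (76.2%) had no other within 25 kb. Joining regions that lay at most 25 kb apart gave 1627 groups, of which 1432 were single regions, 159 had 2 members, 24 had 3, 6 had 4, 5 had 5 and 1 had 8. In groups of at least 2 lay 447 members (23.8%), against 149 of the 964 Tconv-only regions (15.5%), a set of other size for which no test was made. Of the 447, 24 lay in the first 10 Mb of chromosome 14, described with the chromosomes, and without that stretch the share was 23.0%. Members in groups had a peak in KO Treg replicates 1 and 3 at 88.4% and 89.9%, and the wild-type pattern in KO at 63.1%. Single members had 85.5% and 87.2%, and 52.6%. The median distance from a Treg-only region to the nearest shared region was 27.9 kb (quartiles 10.4 and 70.5), against 21.3 kb for Tconv-only regions.

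The largest group spanned chr7:105637431-105735112 (97682 bp) with 8 Treg-only regions, none of them with a KO Tconv peak, and 1 further region. Earlier results of these data had already pointed to this stretch. Lrrc32 lies on chromosome 7 in the GRCm38.p6 gene table, and its distance from the group on NCBIM37 was not determined here. In KO Treg replicates 1 and 3, 4 of the 8 regions had a peak in both and 4 had one in neither. The strongest of the 8, chr7:105640277-105640698, stood at 69.2, 49.0 and 47.3 in WT Treg and at 38.8 and 39.5 in KO Treg replicates 1 and 3, so that both KO values lay below all WT values. The region chr7:105682634-105683904 stood at 63.5, 25.4 and 34.9 in WT Treg and at 27.3 and 44.2 in KO, and chr7:105728635-105729408 at 37.1, 49.4 and 66.4 in WT Treg and 55.5 and 35.2 in KO. At both the genotypes overlapped.

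The fourth region with KO peaks in this group, chr7:105637431-105639031, was weak, at 19.7, 6.06 and 6.92 in WT Treg and at 14.3 and 23.1 in KO. The 4 absent regions were the wide chr7:105710837-105711903 described above, chr7:105661791-105662145 at 26.5, 49.7 and 31.1, chr7:105705321-105705931 at 11.2, 3.79 and 4.34, and chr7:105734587-105735112 at 20.2, 29.1 and 7.13. Along the stretch they do not form 1 unbroken run: the region at 105682634 lies between the first and second of them, and the region at 105728635 between the third and the last. No region of the group had a peak in KO Treg replicate 2.

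The other groups with the most members held 5 each, and their members mostly kept a KO Treg peak. The group at chr1:60925059-60970598 had a peak at all 5 regions in KO Treg replicates 1 and 3. Its strongest region, chr1:60969354-60970598, stood at 82.1, 83.4 and 69.9 in WT Treg, at 82.6 and 77.4 in KO Treg replicates 1 and 3 and at 61.8 in KO Treg replicate 2, with no Tconv peak. The 3 groups on chromosome 16, at chr16:49935845-49971349, chr16:75874623-75930585 and chr16:89825978-89849788, each had 4 regions with both KO Treg peaks and 1 with a single KO Treg peak. Their KO Tconv peaks touched 4, 3 and 3 of the 5 regions, never in all 3 KO Tconv lists. The group at chr2:102788029-102831095 had 4 regions with both peaks and 1 with neither, chr2:102830513-102831095, a weak region at 31.3, 11.7 and 21.9. Of the 6 groups, the chromosome 7 stretch had the most members absent from KO Treg and was alone in having no KO Tconv peak.

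**Figure D4:**
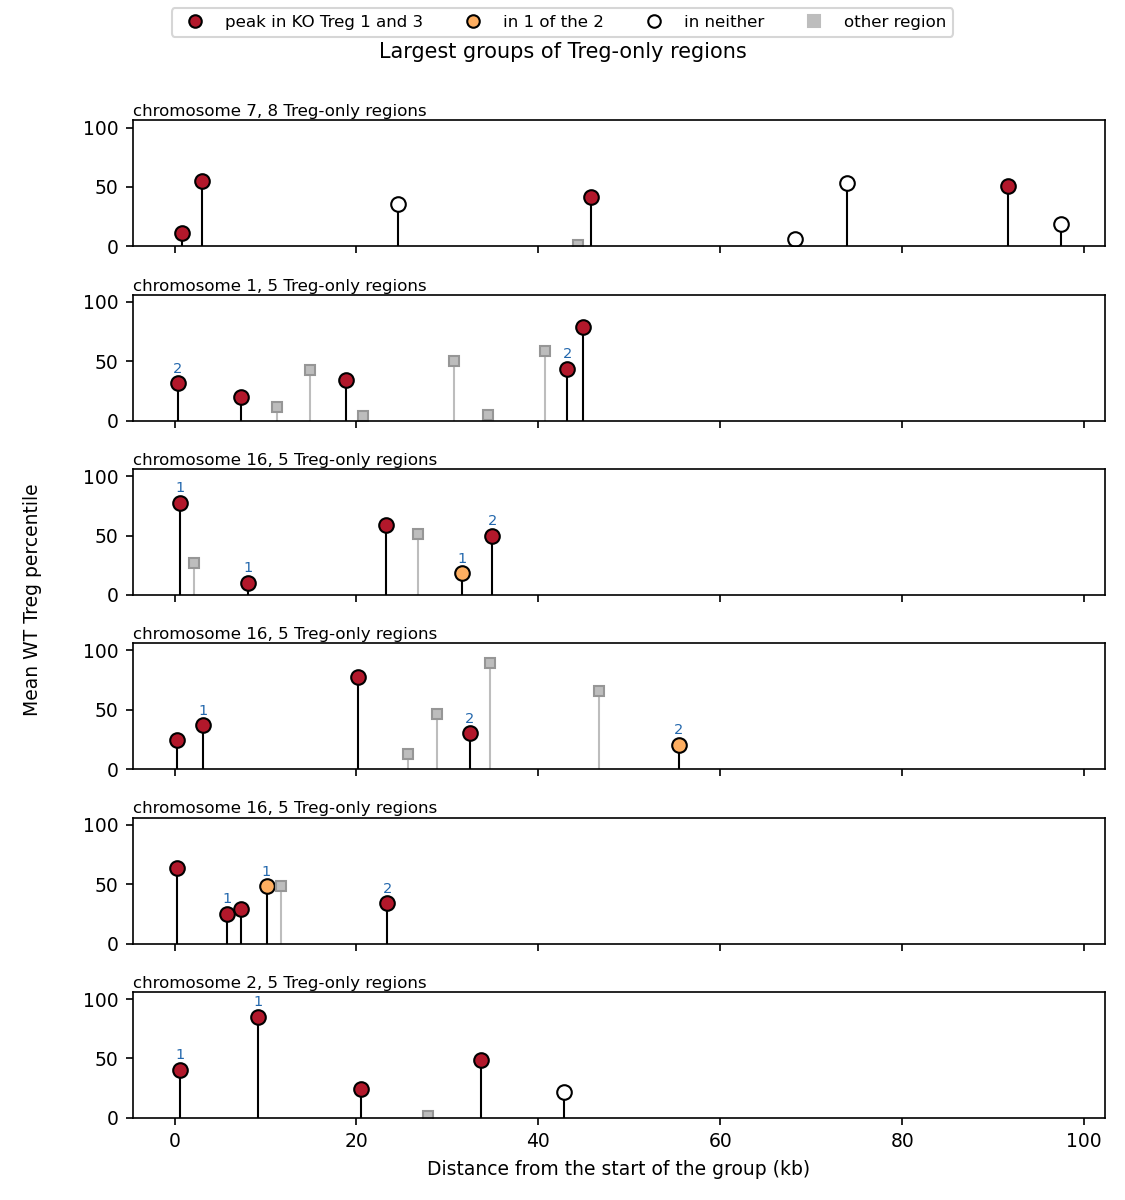
The 6 groups with the most Treg-only regions, drawn by distance from the group's first base (x axis, kb) and mean WT Treg percentile (y axis). Circles are Treg-only regions, filled red with a peak in KO Treg replicates 1 and 3, orange with 1 of them and white with neither, grey squares are other regions with a WT Treg peak, and blue digits count KO Tconv libraries with a peak. The chromosome 7 group shows 4 white circles, and 1 white circle stands in the chromosome 2 group.

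Treg-only regions were spread unevenly over chromosomes. Of the regions with a peak in all 3 WT Treg lists, 15.0% were Treg-only on chromosome 14 (118 regions), 12.7% on chromosome 16 (105), 11.9% on chromosome 18 (73) and 11.6% on chromosome 10 (147). The lowest shares were 4.10% on X (22), 4.30% on chromosome 11 (48), 5.75% on chromosome 19 (28) and 6.01% on chromosome 17 (55). Chromosome Y had none of 22. Chromosome 2 held the most members, 166.

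On chromosome 14 the high share rested on 1 stretch. Of its 118 members, 41 lay in chr14:3339949-8878335, within the first 10 Mb, where 73.2% of the 56 regions with a peak in all 3 WT Treg lists were Treg-only. Without the first 10 Mb the chromosome's share was 10.5% (77 of 730), near the genome-wide value. Of the 40 pairs of neighbours in the stretch, 12 were 6 to 9 kb apart, and whether these regions share sequence was not tested. In KO, 33 of the 41 had a peak in both KO Treg replicates 1 and 3, 1 had one in neither and 2 had a KO Tconv peak. Leaving the stretch out gave 1838 Treg-only regions, of which 54.6% had the wild-type pattern in KO and 4.84% had no peak in KO Treg replicates 1 and 3. The stretch was singled out after its values were seen.

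**Figure D5:**
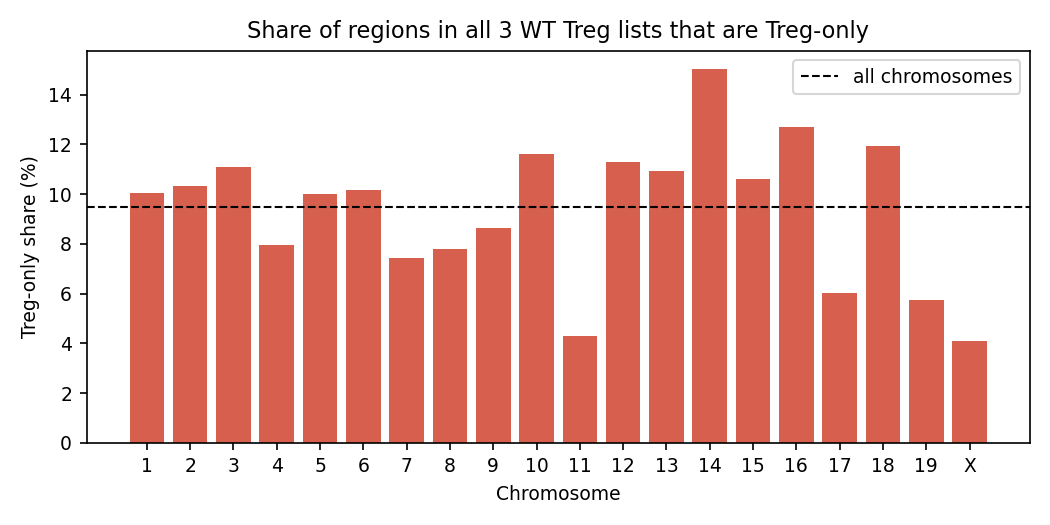
Share of regions with a peak in all 3 WT Treg lists that are Treg-only (percent), by chromosome. Chromosomes 14 and 16 stand highest at 15.0% and 12.7%, against a genome-wide 9.47%, but chromosome 14 is at 10.5% without its first 10 Mb. X and chromosome 11 are the lowest drawn, at 4.10% and 4.30%, and Y, with none of 22, is not drawn.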

How the data were processed

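ATAC-seq peak lists of 12 libraries, 3 per group, were used, with groups and replicate numbers taken from the sample titles. Per the submitters' processing notes, the build was NCBIM37 and the tools were MACS2, Bowtie2, Trim Galore 0.4.4, DESeq2 and DiffBind, listed with neither role nor order. The sources used here do not name a control input, read filters or any shift of cut sites. Each library has its own deposited list of broad peaks, with no pooled list. The sample number that prefixes each peak's name differs from the number of its deposited list for most libraries, and the recorded assignment of lists was used.

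The deposited lists give each peak a −log10 p, a −log10 q, a fold ratio and a score, all from the authors' peak caller and specific to the list. No counts are given, so depth is unknown and no count model was used. The −log10 p was turned into a percentile within its list. Where several peaks of a list fell in a region, the strongest gave its percentile and fold, and their widths were summed.

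Peaks were merged over all 12 lists and the members picked by presence. The members, the lists and the regions named were chosen with earlier results of these data known. Named regions are the 10 strongest by mean WT Treg percentile, the 5 strongest without a peak in KO Treg replicates 1 and 3, the 5 strongest with a peak in all 3 KO Tconv lists, the 5 strongest with a peak in KO Treg replicate 2, the 4 weakest, and the groups with the most members when joined over 25 kb, ties included. Only the share difference between KO Treg and KO Tconv was tested, with an exact two-sided permutation test over libraries. For the replicate block an exact sign-flip test over same-numbered pairs took its place. Intervals are exact 95% Clopper-Pearson. Alternatives were a limit of 5 on −log10 q, the 21269 strongest peaks of each list (KO Treg replicate 2 whole), 50% coverage, joining over 200 bp, ranks by fold, other member rules, a replicate block and leaving out each library. Simulated data were used to test the merging, the choice of members and the width difference. They also covered the shares with the wild-type pattern, absent from KO Treg and in all KO Tconv lists. Percentile differences, quartile groups, left-out lists and groups of neighbouring regions were not tested in that way. Planned gene, marker and motif content was not run, since no NCBIM37 genome or annotation was used here; the GRCm38.p6 table gave only the chromosome of Lrrc32. Software was scipy 1.17.1, pandas 2.3.3, numpy 2.4.6 and matplotlib 3.10.9 under Python 3.11.15.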

Additional observations from a re-analysis of the deposited data

How the results depend on the processing

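Of 112 comparisons of a value with an alternative, 76 were counted as unmoved and 36 as moved, by limits not given here, and none changed sign. The KO Treg minus KO Tconv difference of 43.0 points counted as unmoved under every alternative, although it ran from 28.6 to 70.8 points. No p below 0.1 was possible for it in the exact permutation test, so p could not mark a move. The count of 76 therefore does not show that this difference was stable. Requiring only 2 of 3 WT Treg peaks gave 3587 regions, of which 41.4% had the wild-type pattern in KO and 15.2% had no peak in KO Treg replicates 1 and 3. The wild-type pattern was seen at 59.1% with stricter peaks, 59.97% with equal numbers of top peaks and 43.3% with 50% coverage. With 50% coverage, 9.51% were absent from KO Treg replicates 1 and 3 and 5.94% had a peak in all KO Tconv lists. The KO Treg minus WT Treg median percentile, 6.50 points, was 9.78 with stricter peaks and 0.973 with KO Treg replicate 2 included, and the width difference, 75.2 bp, was 14.2 bp with that library. The strongest minus the weakest quartile group in KO Treg, 22.1 points, was 16.9 with strength ranked by fold and 32.5 with 50% coverage. The cause of these moves was not tested, beyond the easier rule that fewer lists make. Equal numbers of top peaks for the left-out lists, the regions with a peak in all 5 Treg lists and leaving out the first 10 Mb of chromosome 14 were alternatives added after seeing the data.

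Leaving out 1 library at a time gave 2040 to 2804 regions, 45.0% to 60.8% with the wild-type pattern, 4.785% to 13.9% absent, 3.95% to 9.31% in all KO Tconv lists, differences of 28.6 to 70.8 points between KO Treg and KO Tconv, 6.34 to 8.49 percentile points and 71.5 to 97.0 bp. The lowest difference came without KO Treg replicate 3 and the highest without replicate 2.

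The replicate block gave the same 43.0 points, with p = 0.5 in an exact sign-flip test over same-numbered KO Treg and KO Tconv pairs. That test cannot reach a p as low as the 0.1 of the main test. The block also gave 7.48 percentile points and 90.5 bp over the pairs 1 and 3. Deviations of same-numbered WT Treg and Tconv libraries correlated at 0.102, 0.0313 and 0.111 across 14727 regions. Each was higher than with another number, where values ran from -0.102 to 0.0120. In KO, replicates 1 and 3 gave 0.0975 with the same number and -0.0975 with the other number. With only these replicates, the value for the other number is the negative of the first by construction and adds nothing to it. These correlations are low, and the labels do not say what a number marks, so the main test used no pairing. Absence at the limit of −log10 p 5 cannot be told apart from weaker signal, and unknown depth limits every share.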
